A study of Mus musculus with 19 samples.

Results

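The nuclear genes for mitochondrial ribosomal proteins were followed in liver mRNA of mutant and control mice. They were taken as all genes whose annotated symbol starts with Mrpl, for the large subunit, or Mrps, for the small subunit. This gave 76 of 19505 genes on the array, 48 of them Mrpl and 28 Mrps. The mutants were 10 Mmut-ko/ki male mice with 1 knockout allele and 1 knock-in allele of Mmut. The controls were 9 Mmut-ki/wt male mice with 1 knock-in and 1 wild-type allele. Mmut encodes methylmalonyl-CoA mutase, and the knock-in allele, which both groups carry, holds the patient missense change MMUT-p.Met700Lys. No group without the knock-in allele was measured, so every comparison is against a heterozygous control. All mice were C57BL/6N, 20 weeks old by the labels, untreated and fed ad libitum, and the methods give a high-protein diet from early life in both groups. The alleles are constitutive, and RNA came from whole liver, 1 array per mouse, so each replicate is an animal. In bulk tissue, fewer cells of a type and less RNA per cell cannot be told apart.

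The mitochondrial ribosome makes the few respiratory chain and ATP synthase subunits that mitochondrial DNA encodes. Its RNAs are transcribed inside the organelle, whereas its proteins are all encoded in the nucleus, made in the cytosol and imported. The large subunit forms the peptide bond and the small subunit reads the messenger RNA. Many of the proteins have a bacterial homolog, and the others were added during the evolution of mitochondria. Liver is rich in mitochondria, and defects of several of these proteins cause inherited respiratory chain disease in humans. The arrays measured mRNA only, so protein and assembled ribosomes were not measured. Of the symbols known for this family, Mrpl53 and Mrps6 were not named in the annotation used and were not analysed here.

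Values are log2 signals as the authors deposited them, and differences are mutant minus control. Rose, fell and passed mean an adjusted p under 0.05 from limma over all 19505 genes. Array medians lay between 5.19 and 5.25 in mutants and between 5.14 and 5.25 in controls. Mmut itself fell by 1.66 on the log2 scale (SE 0.12, adjusted p = 5.3e-10), to 31.7% of the control level, with all 10 mutants below every control. Hepatocyte markers were detected on every array and 0 of 7 changed, with array means of 19.31 to 19.43 in mutants and 19.37 to 19.46 in controls. Of 6 Kupffer cell or macrophage markers, 3 rose (Vsig4, Clec4f and Adgre1, by 0.87, 0.72 and 0.55), and the list's array means spanned 8.25 to 9.59 in mutants and 7.71 to 8.65 in controls. Of 4 listed erythroid markers only 1, Alas2, was analysed. It fell by 1.89, with array values of 7.80 to 9.75 in mutants and 10.14 to 11.14 in controls. Of 6 sinusoidal endothelium markers Clec4g alone passed, with a rise of 0.67, and the list's median was 0.25. Of 4 proliferating cell markers Mki67 alone passed, with a rise of 1.24, and the list's median was 0.46. The call of Mki67 ended without any 1 of 7 arrays, with limma's trend and robust settings and with the methods' t-test (adjusted p = 0.106), and that of Adgre1 without any 1 of 4 arrays and with the adjusted Wilcoxon test. Clec4f did not pass with either of the methods' tests after adjustment. Of 7 stellate cell markers Reln alone passed, with a fall of 0.44, while 5 were higher and the list's median was 0.06. Of 4 cholangiocyte markers Sox9 alone passed, with a fall of 0.77, while 2 were higher and the list's median was 0.02. The cholangiocyte marker Krt19 was detected on no array. Of 5 lymphocyte markers 0 passed, but all 5 were higher, with a median of 0.28. Of these, Cd3e and Cd3g were each detected in 4 mutants and 3 controls. Of 3 neutrophil markers 0 passed, with a median of 0.10. The part of these cell types in the results on the mitochondrial ribosome was not tested.

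Most mitochondrial ribosomal protein genes had a lower mean signal in mutant liver, by small amounts. All 76 were detected on all 19 arrays. Of the 76, 19 fell (25%), 2 rose (2.63%) and 55 did not pass the test. Over all genes tested, 10.1% passed, 5.33% fell and 4.73% rose. By the methods' t-test at an unadjusted p under 0.05, 33 members were lower and 3 higher, against 11.5% and 10.3% of all genes. The Wilcoxon test at the same threshold found 32 lower and 3 higher, against 11.1% and 9.62% of all genes. The sign of the difference was negative for 67 members (88.2%) and positive for 9, against 49.5% negative over all genes. The median difference was -0.24, with quartiles of -0.40 and -0.08, and ran from -0.83 for Mrps16 to 0.47 for Mrpl14. The median over all genes was 0.00, with quartiles of -0.15 and 0.15. In 0 of 76 members did all mutants lie below every control, which 0.549% of all genes did. All mutants lay above every control for 1 member, Mrps9, and for 0.933% of all genes, which makes 1.48% of all genes without overlap in either direction.

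**Figure D1:**
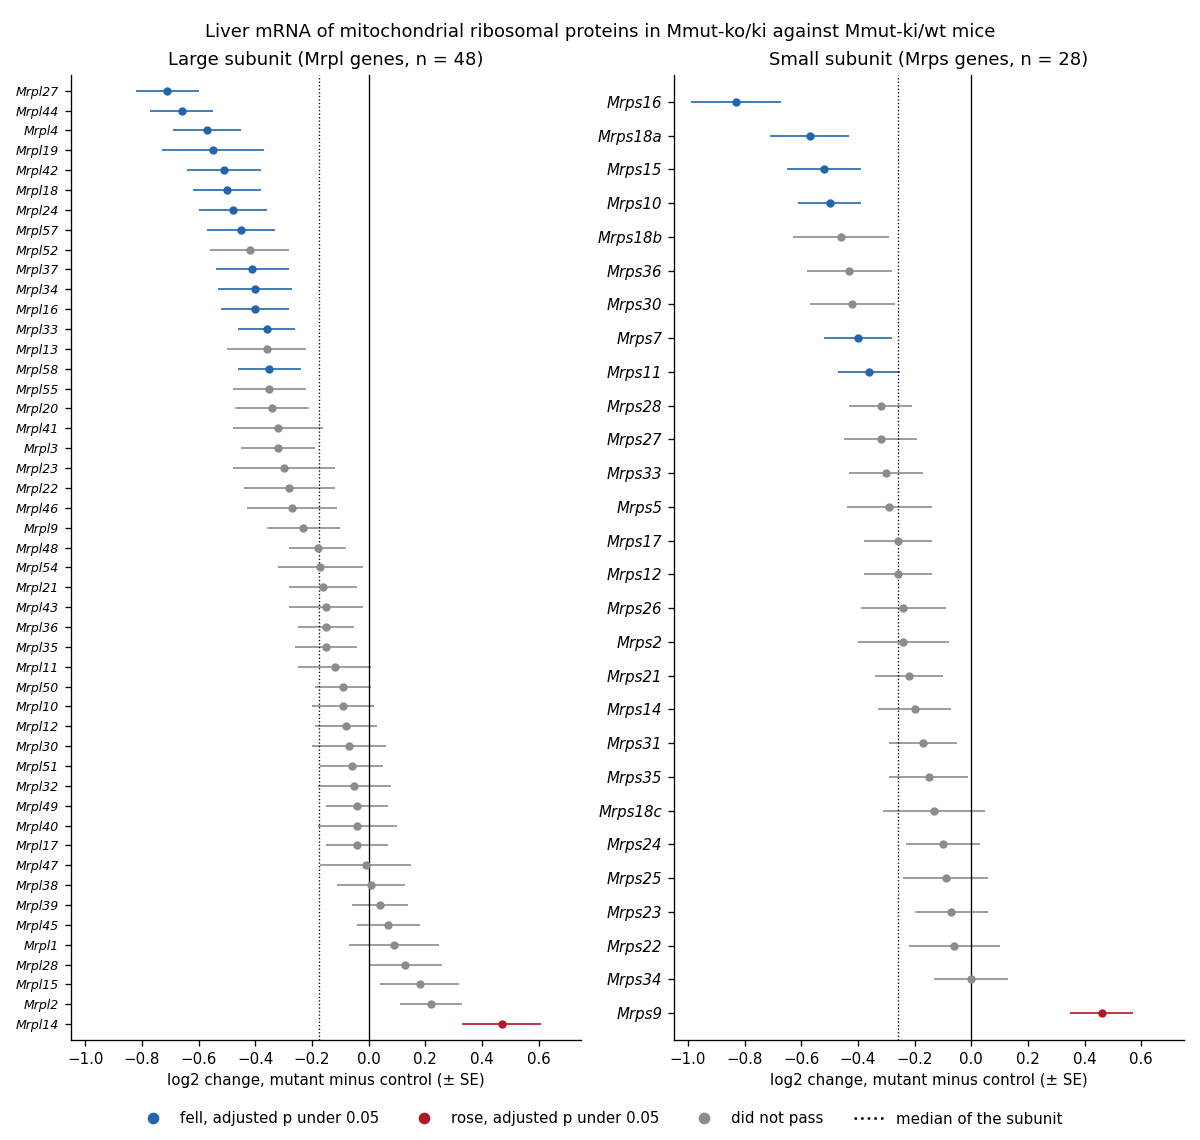
Difference in log2 signal, mutant minus control, for each of the 48 Mrpl genes (left) and 28 Mrps genes (right), with the standard error from limma as the bar. Blue genes fell and red genes rose at an adjusted p under 0.05, grey genes did not pass, and the dotted line is the subunit's median; 67 of 76 points lie below 0, and Mrpl14 and Mrps9 stand alone on the right.

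The number of genes called changed as single arrays were left out. Leaving out 1 array at a time gave between 12 and 21 genes that fell and 1 or 2 that rose. The lowest count, 12, came without control replicate 6, whose members averaged 0.15 above the control mean, the highest of the controls. The highest count, 21, came without control replicate 1, which stood apart from the other controls: its members averaged 0.24 below the control mean and 62 of 76 were lower than it. Of the 21 called members, 11 kept their call in all 30 alternatives run (10 that fell, and Mrps9), and 10 lost it in at least 1. In 0 of these alternatives did a called member reverse its sign.

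The promoters of 4 members whose values follow are shown because they carry motifs of factors known to act on nuclear genes for mitochondrial proteins; they were chosen after the values were seen. Each sequence is RefSeq's, on GRCm38.p6, and runs from 100 bases before the annotated transcription start to the first 20 transcribed bases. Capitals mark an ETS motif (CCGGAAGT, bound by the GABP factors) in Mrpl27 and an NRF1 motif (GCGCA, any base, GCGC) in the others, and in Mrps9 the motif was matched on the opposite strand.
Mrpl27, chr11:94653691-94653810, + strand: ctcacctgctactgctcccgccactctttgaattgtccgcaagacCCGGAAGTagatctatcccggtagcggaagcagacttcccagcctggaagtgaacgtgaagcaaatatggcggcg
Mrpl44, chr1:79775918-79776037, + strand: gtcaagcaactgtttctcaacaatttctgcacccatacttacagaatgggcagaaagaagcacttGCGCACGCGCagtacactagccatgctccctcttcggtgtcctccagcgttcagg
Mrps9, chr1:42851133-42851252, + strand: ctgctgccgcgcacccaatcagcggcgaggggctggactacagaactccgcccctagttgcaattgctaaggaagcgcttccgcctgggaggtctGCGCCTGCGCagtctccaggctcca
Mrpl14, chr17:45686249-45686368, + strand: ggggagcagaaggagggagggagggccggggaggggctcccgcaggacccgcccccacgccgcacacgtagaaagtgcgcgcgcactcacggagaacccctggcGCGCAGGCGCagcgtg
The first base of the motif lies at -55 in Mrpl27, -35 in Mrpl44, -5 in Mrps9 and 4 in Mrpl14, counted with the first transcribed base as 0. Mrpl27 and Mrpl44 fell, whereas Mrps9 and Mrpl14 rose. The NRF1 motif thus stood in promoters of members that moved in either direction.

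Over all members with a RefSeq promoter of 300 bases (67 of 76, both strands searched), 13 held the NRF1 motif (19.4%), against 7.63% of 15691 promoters of tested genes. The ETS motif stood in 12 (17.9%), against 5.88%, and a YY1 motif (AAGATGGC) in 12 (17.9%), against 3.64%. The YY1 letters hold a start codon and can lie over the start of translation. The SP1 motif (GGGCGG) stood in 49.3% of members and 51.2% of all promoters, and the E-box CACGTG in 7.46% and 9.26%. The ESRRA motif (TCAAGGTCA) stood in 0 member promoters and 0.351% of all, and the DR1 motif of nuclear receptors in 0 and 0.0637%. Of 17 members that fell and have a promoter, 2 held the NRF1, 3 the ETS and 5 the YY1 motif. Of 48 that did not pass, 9 held the NRF1, 9 the ETS and 7 the YY1 motif, and both members that rose held the NRF1 motif. A match describes letters and not a bound site.

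In the large subunit, 13 of 48 genes fell and 1 rose. Mrpl27, the homolog of a bacterial protein that reaches towards the peptidyl transferase centre, had the largest fall of the Mrpl genes. Its log2 signal ran from 11.61 to 12.28 in mutants (median 11.79), against 12.17 to 12.86 in controls (median 12.55). Of the 10 mutants, 9 lay below every control, and mutant replicate 6 alone reached into the control range. The difference was -0.71 (SE 0.11, adjusted p = 8.3e-05, 61.2% of the control level; exact permutation p = 3.2e-05). Mrpl44, a protein particular to mitochondrial ribosomes that has a ribonuclease III-like fold, ran from 7.41 to 8.24 in mutants (median 7.75), against 8.08 to 8.76 in controls (median 8.47). The groups met only at mutant replicate 10, the highest mutant, and control replicate 7, the lowest control. Its difference was -0.66 (SE 0.11, adjusted p = 0.00025, 63.3% of the control level; exact permutation p = 4.3e-05).

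Mrpl4, whose bacterial homolog lines the tunnel through which the new chain leaves, ran from 6.31 to 7.32 in mutants (median 6.95), against 7.13 to 7.73 in controls (median 7.57). Of the mutants, 7 of 10 lay below every control, and the difference was -0.57 (SE 0.12, adjusted p = 0.00275, 67.3% of the control level; exact permutation p = 0.00018). Mrpl18, which belongs to the central protuberance at the top of the subunit, ran from 9.91 to 10.71 in mutants (median 10.21), against 10.51 to 11.23 in controls (median 10.69). Mutant replicates 5 and 7 overlapped the controls and the other 8 did not. The difference was -0.50 (SE 0.12, adjusted p = 0.00615; exact permutation p = 0.00032). Mrpl24, at the tunnel exit, fell by 0.48 (adjusted p = 0.0103), Mrpl42, particular to mitochondria, by 0.51 (adjusted p = 0.0108) and Mrpl57, likewise, by 0.45 (adjusted p = 0.0142). The calls of Mrpl24 and Mrpl42 ended under 0 of 30 alternatives, and that of Mrpl57 without 0 of the single arrays.

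**Figure D2:**
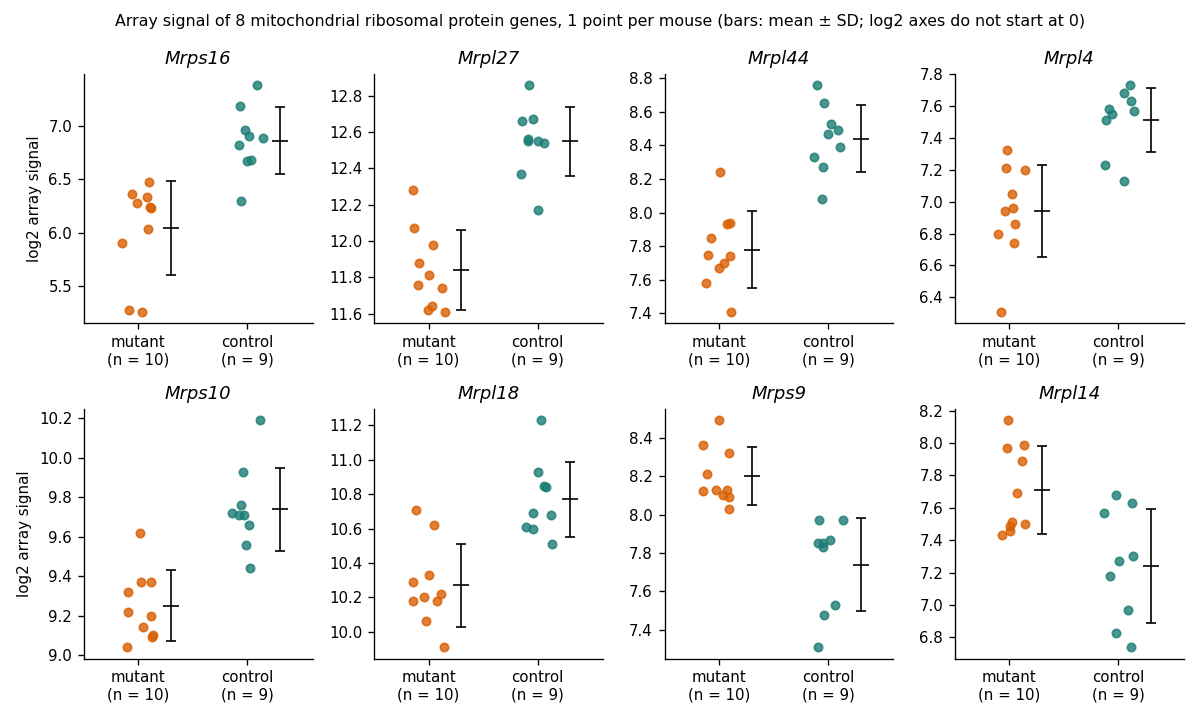
Log2 array signal of 8 members, 1 point per mouse, mutants (n = 10) left of controls (n = 9), with the mean and SD beside each group. In the first 6 panels most mutants lie under the controls with a small overlap, in Mrps9 all 10 mutants lie above every control, and in Mrpl14 the groups overlap.

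The other 6 large subunit genes that fell lay nearer the threshold, with adjusted p between 0.0247 and 0.0472. Mrpl33, a short protein with a bacterial homolog, fell by 0.36 (adjusted p = 0.0247), and its call ended without control replicate 4 (adjusted p = 0.0543) or 9 (adjusted p = 0.0559). Mrpl16, whose bacterial homolog lies near the bound transfer RNA, fell by 0.40 (adjusted p = 0.0333) and lost its call without any 1 of 6 arrays. Mrpl37, particular to mitochondria, fell by 0.41 (adjusted p = 0.0413) and lost it without any 1 of 12 arrays. Mrpl19, with a bacterial homolog at the face between the subunits, fell by 0.55 (SE 0.18, adjusted p = 0.0469), Mrpl34 by 0.40 (adjusted p = 0.0460) and Mrpl58 by 0.35 (adjusted p = 0.0472). Mrpl58, also known as ICT1, is a peptidyl-tRNA hydrolase that frees stalled ribosomes. These 3 calls ended without any 1 of 14, 14 and 16 arrays, so they lay at the threshold and did not rest on 1 particular animal. Without control replicate 4, 6 or 9, the number of large subunit genes that fell was 8, and over all single arrays left out it ran from 8 to 13.

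In the small subunit, 6 of 28 genes fell and 1 rose. Mrps16, the homolog of a bacterial protein needed for assembly of the subunit and linked to respiratory chain disease in humans, had the largest fall of all 76 members. Its log2 signal ran from 5.26 to 6.47 in mutants (median 6.24), against 6.30 to 7.38 in controls (median 6.88). Mutant replicates 1 and 4 were far below the other mutants, at 5.26 and 5.28, and control replicate 1 was the lowest control. The difference was -0.83 (SE 0.16, adjusted p = 0.00129, 56.4% of the control level; exact permutation p = 8.7e-05), and it ran from -0.92 to -0.74 over the alternatives. Mrps10, in the head of the subunit, ran from 9.04 to 9.62 in mutants (median 9.21), against 9.44 to 10.19 in controls (median 9.71). Only mutant replicate 7 reached the controls, and the difference was -0.50 (SE 0.11, adjusted p = 0.00294; exact permutation p = 7.6e-05).

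Mrps18a, which carries a small subunit symbol but sits in the large subunit of the mammalian ribosome, ran from 7.33 to 8.20 in mutants (median 7.80), against 7.77 to 8.67 in controls (median 8.55). The groups overlapped more than for Mrps16, with 5 of 10 mutants below every control. The difference was -0.57 (adjusted p = 0.00939; exact permutation p = 0.00168). Mrps15, whose bacterial homolog binds the small ribosomal RNA directly, ran from 5.42 to 6.35 in mutants (median 5.73), against 5.75 to 6.60 in controls (median 6.50). Its difference was -0.52 (adjusted p = 0.0115). Control replicate 1 was its lowest control by a wide gap, since the next control lay at 6.17. Mrps7, in the head, fell by 0.40 (adjusted p = 0.0347) and Mrps11, on the platform, by 0.36 (adjusted p = 0.0398). Their calls ended without any 1 of 8 and 12 arrays.

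Mrps9 and Mrpl14 rose against the direction of the family. Mrps9 encodes the homolog of a bacterial protein whose tail touches the transfer RNA in the P site. Its log2 signal ran from 8.03 to 8.49 in mutants (median 8.13), against 7.31 to 7.97 in controls (median 7.85). The groups did not overlap. The difference was 0.46 (SE 0.11, adjusted p = 0.00629, 137.0% of the control level), with an exact permutation p of 1.1e-05, the smallest that 92378 splits of the arrays can give. Groups without overlap give a permutation p at or next to that floor, so it adds nothing to the lack of overlap, and it is not adjusted over genes. The difference lay between 0.40 and 0.49 in all 30 alternatives, at an adjusted p of 0.00146 to 0.0449.

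Mrpl14, on the face of the large subunit that meets the small one, ran from 7.43 to 8.14 in mutants (median 7.60), against 6.74 to 7.68 in controls (median 7.27). The groups overlapped, with 5 of 10 mutants above every control and 6 of 9 controls below every mutant. The difference was 0.47 (SE 0.14, adjusted p = 0.0331; exact permutation p = 0.00436). Its call ended without mutant replicate 2, 3, 7 or 10 or control replicate 1, 5, 8 or 9, with median centring, and with both tests that the methods name, at an adjusted p of up to 0.0996. The call also ended by limma without control replicate 1 and mutant replicate 6 together (adjusted p = 0.057). The difference stayed between 0.40 and 0.52 in all 30 alternatives. Of the members that did not pass, Mrpl2 and Mrpl15 had the highest positive differences, at 0.22 (adjusted p = 0.238) and 0.18 (adjusted p = 0.50).

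The 55 members that did not pass were mostly on the lower side too: their differences ran from -0.46 for Mrps18b (adjusted p = 0.0853) to 0.22 for Mrpl2. Those closest to the threshold, chosen after their values were seen, were Mrpl52, at -0.42 (adjusted p = 0.0540), and Mrps28, at -0.32 (adjusted p = 0.0573). Mrps36, at -0.43 (adjusted p = 0.0734), carries the family's symbol but is now known as a subunit of the oxoglutarate dehydrogenase complex. The smallest differences among Mrps genes were those of Mrps34, at 0.00, with values of 8.04 to 9.05 in mutants and 7.86 to 8.68 in controls, and Mrps22, at -0.06, with 7.63 to 8.19 in mutants and 6.87 to 8.58 in controls. The SE of the differences ran from 0.10 to 0.18 over the 76 members, with a median of 0.13, against the family's median difference of -0.24. The SD among mutants was 0.09 to 0.53 (median 0.25) and among controls 0.11 to 0.50 (median 0.27).

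The median difference was negative in both subunits. Of the Mrpl genes, 27.1% fell and 40 of 48 had a negative difference, with a median of -0.18 and quartiles of -0.37 and -0.05. Of the Mrps genes, 21.4% fell and 27 of 28 had a negative difference, with a median of -0.26 and quartiles of -0.40 and -0.14. The median was thus 0.08 higher for the large than for the small subunit, and between 0.04 and 0.12 in the alternatives. With Mrps18a and Mrps30 counted in the large subunit, where they sit, and Mrps36 left out, 14 of 50 large and 5 of 25 small subunit genes fell, with medians of -0.21 and -0.24. The members are not replicates, so the subunits were compared by array.

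For each array, the deviation of each member from its control mean was averaged over the subunit. The Mrpl average ran from -0.33 to -0.11 in mutants (median -0.20), against -0.18 to 0.16 in controls (median 0.02). The Mrps average ran from -0.40 to -0.08 in mutants (median -0.27), against -0.35 to 0.13 in controls. Mutant replicate 9 was the lowest in both and mutant replicate 7 the nearest to the controls in both. Of the controls, replicate 1 lay among the mutants in both, and replicate 5 lay beside mutant replicate 7. The Mrpl minus the Mrps average was -0.03 to 0.11 in mutants and -0.12 to 0.17 in controls. The highest control, at 0.17, was replicate 1. Without it the 8 other controls ran from -0.12 to 0.04, and 6 of 10 mutants lay above all of them. The groups thus overlapped less in this difference without that array, but they still overlapped. Without it, 9 of 10 mutants also lay below every control in the Mrpl and in the Mrps average. The mean deviation over all genes was between -0.01 and 0.01 on every array.

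**Figure D3:**
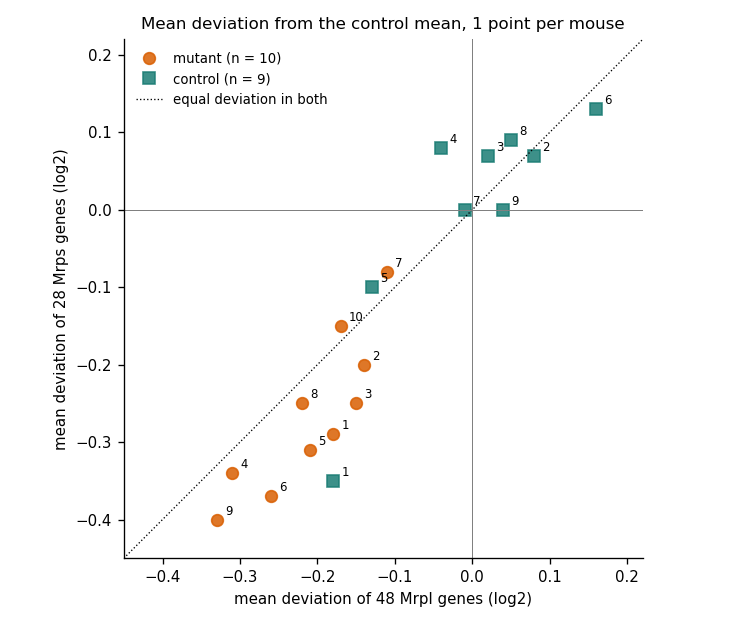
Mean deviation from the control mean (log2) of the 48 Mrpl genes (x axis) and 28 Mrps genes (y axis), 1 numbered point per mouse, with the line of equal deviation dotted. Mutants (circles) fill the lower left, from -0.33 to -0.11 on the x axis, and control replicates 1 and 5 lie among or beside them.

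Genes with and without a bacterial homolog were compared within each subunit of the structure. Mrps18b and Mrps18c were counted with a bacterial homolog, but Mrps18a as particular to mitochondria, so the counts depend on this assignment. Mitochondrial ribosomal proteins with other symbols were left out of these classes. In the large subunit, 8 of 30 genes with a bacterial homolog fell and 1 rose (median -0.19), and 6 of 20 particular to mitochondria fell (median -0.23). In the small subunit, 5 of 16 genes with a bacterial homolog fell and 1 rose (median -0.28). Of the 9 small subunit genes particular to mitochondria, 0 changed (median -0.15), although all 9 had a negative sign. Over all genes 10.1% passed and 5.33% fell, so 0 calls in 9 genes lie near the share of all genes. At an unadjusted p under 0.05 from limma 2 of these 9 were lower, and the methods' t-test and Wilcoxon test called 0 after adjustment. Whether this class differs from the others was not tested.

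**Figure D4:**
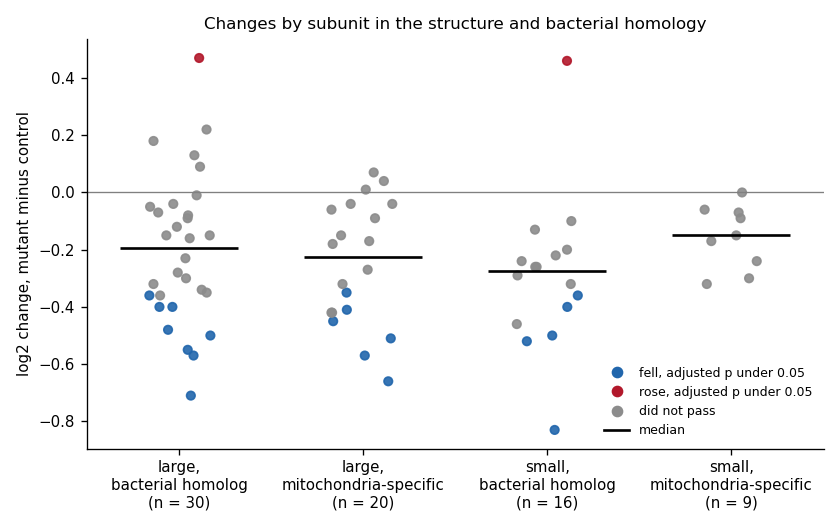
Difference in log2 signal, mutant minus control, of each member (1 point per gene, blue fell, red rose, grey did not pass), split by subunit in the structure and by bacterial homology, with the median as a line. The medians lie between -0.28 and -0.15, and the 9 small subunit genes particular to mitochondria hold no called gene, against 10.1% called over all genes.

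The large subunit genes were also grouped by place. In the central protuberance, 3 of 9 genes fell (Mrpl18, Mrpl27 and Mrpl58), with a median of -0.35. Around the exit of the polypeptide tunnel, 2 of 8 fell (Mrpl24 and Mrpl44), with a median of -0.16. In the stalk, which recruits translation factors, 0 of 4 changed: Mrpl10, Mrpl11, Mrpl12 and Mrpl54 had differences of -0.09, -0.12, -0.08 and -0.17. By limma at an unadjusted p under 0.05, and by the other 2 tests after adjustment, 0 of these 4 passed as well. Over all genes 10.1% passed and 5.33% fell by limma after adjustment, so 0 calls in 4 genes lie near the share of all genes. The differences between these places were not tested.

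Mitochondrial ribosomal proteins that carry other symbols had differences on the same side, and 0 of 4 passed. Chchd1 was at -0.42 (adjusted p = 0.0693), Gadd45gip1 at -0.36 (adjusted p = 0.267), Dap3 at -0.26 (adjusted p = 0.193) and Ptcd3 at -0.16 (adjusted p = 0.426). Limma at an unadjusted p under 0.05 found 2 of the 4 lower, and the methods' tests 0 after adjustment. Chchd1 passed with median centring, and 1 of the 4 passed without control replicate 1. Aurkaip1 was not analysed here.

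Factors that build or serve the mitochondrial ribosome had negative medians, and the shares that fell were 12% of the assembly factors, 18.8% of the translation factors and 6.25% of the synthetases, against 5.33% of all genes. Of 25 assembly factors 3 fell and 0 rose, with a median of -0.18. These were Mpv17l2, which binds the large subunit (-0.59, adjusted p = 0.0188), Fastkd2, an RNA-binding protein (-0.53, adjusted p = 0.0346), and Eral1, the GTPase that binds the small subunit RNA (-0.39, adjusted p = 0.0456). Without control replicate 1 the count was 7, and over all single arrays left out it ran from 1 to 7. Of 16 translation factors and related proteins 3 fell and 0 rose, with a median of -0.19. The elongation factor Tufm fell by 0.42 (adjusted p = 0.0138), the ribosome recycling factor Mrrf by 0.34 (adjusted p = 0.0349) and Slirp, which stabilises mitochondrial messenger RNAs, by 0.33 (adjusted p = 0.0488). This count ran from 1 to 4 with single arrays left out and was 1 without control replicate 6. Of 16 mitochondrial aminoacyl-tRNA synthetases 1 fell, Cars2, by 0.50 (adjusted p = 0.0410), and their median was -0.12. The calls of Fastkd2, Eral1, Mrrf, Slirp and Cars2 ended without any 1 of 9, 11, 8, 14 and 10 arrays, and those of Mpv17l2 and Tufm without 0.

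The median difference of the cytosolic ribosomal protein genes was near 0, and that of the respiratory chain genes was negative. Of 63 cytosolic ribosomal protein genes (Rpl and Rps symbols), 3 fell (4.76%) and 1 rose (1.59%), with a median of -0.05 and 60.3% negative. Over all genes 5.33% fell, 4.73% rose and 49.5% were negative. Of 86 nuclear genes for respiratory chain and ATP synthase subunits, 20 fell and 0 rose (23.3%), with a median of -0.18 and 84.9% negative. Markers of mitochondrial mass were near 0 in their median: of 7 genes, Cs, the citrate synthase of the matrix, fell by 0.43 (adjusted p = 0.0431) and the other 6 did not pass, with a median of 0.01. The call of Cs ended without any 1 of 14 arrays, at an adjusted p of 0.0555 to 0.0846. These lists are described by counts and medians, and the differences between them were not tested.

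**Figure D5:**
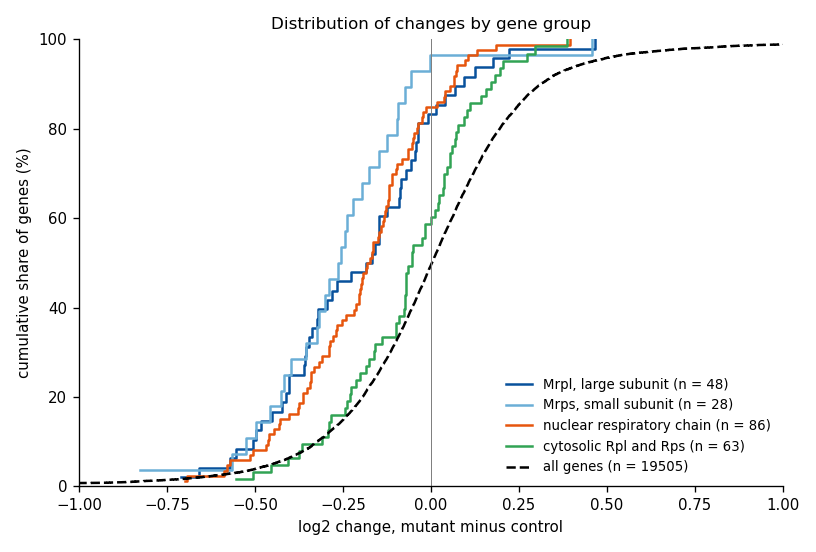
Cumulative share of genes (y axis, in percent) by difference in log2 signal, mutant minus control (x axis, shown from -1 to 1), for Mrpl, Mrps, nuclear respiratory chain and ATP synthase, cytosolic ribosomal protein and all 19505 genes. The Mrpl, Mrps and respiratory chain curves lie to the left, with medians of -0.18, -0.26 and -0.18, and the cytosolic curve, with a median of -0.05, lies closer to that of all genes.

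Among 11 regulators of nuclear genes for mitochondrial proteins, 2 rose (18.2%) and 0 fell, against 4.73% and 5.33% of all genes. With single arrays left out, 2 to 4 of them were called. Ppargc1a, the coactivator PGC-1alpha, ran from 8.76 to 11.76 in mutants (median 9.91), against 8.61 to 9.49 in controls (median 9.14), a difference of 1.03 (SE 0.28, adjusted p = 0.0186). Of the mutants, 7 of 10 lay above every control. Myc ran from 5.25 to 9.90 in mutants (median 7.29), against 5.19 to 7.74 in controls (median 5.75), a difference of 1.51 (SE 0.43, adjusted p = 0.0236). Both were thus higher in the mutants while most members were lower. With the methods' t-test adjusted over all genes neither passed (adjusted p = 0.0668 for Ppargc1a and 0.0766 for Myc). Ppargc1a did pass the adjusted Wilcoxon test. Myc did not pass with limma's trend and robust settings either (adjusted p = 0.0694), nor with the adjusted Wilcoxon test (adjusted p = 0.07). It also did not pass by limma without control replicate 1 and mutant replicate 6 together (adjusted p = 0.0665). For the NRF1, ETS and YY1 motifs, the listed factors did not pass. Nrf1 was at 0.29 (adjusted p = 0.118) and Gabpa at -0.15 (adjusted p = 0.449). Gabpb1 was at -0.45 (adjusted p = 0.0705) and Yy1 at 0.00 (adjusted p = 0.996). Esrra was not analysed here. mRNA levels do not give the activity of these factors.

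Within the groups, members moved together only weakly. Over the 19 arrays, after each gene's group means were removed, the mean correlation of 2 members was 0.11 over 2850 pairs. It was 0.09 between Mrpl genes, 0.15 between Mrps genes and 0.12 between the subunits. Between members and respiratory chain subunits it was 0.08, between members and cytosolic ribosomal protein genes 0.04, and between all genes detected on every array 0.00. These values are a description, since all pairs share the same 19 arrays and control replicate 1 was low for most members.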

How the data were processed

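Each sample is the liver of 1 mouse, measured on 1 Clariom S array after TRIzol and column extraction of total RNA and amplification. The scans were normalized by the authors with SST-RMA in TAC, the software of the array maker. The authors deposited a log2 signal for every probe set on every array, and next to it a p-value of detection above background. Detection p was under 0.05 for 69.8% to 77.1% of probe sets in mutants and 68.0% to 72.7% in controls. With 10 and 9 arrays, the number of animals sets the precision.

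The log2 values were taken without further normalization. Of 22206 probe sets, 19572 named 1 gene, and the 2634 unnamed ones were left out. Where a gene had several (55 genes), its brightest probe set was kept, leaving 19505 genes. Levels were not compared between genes. Differences between mutants and controls were tested, two-sided, with lmFit and eBayes of limma 3.58.1 (R 4.3.3), with Benjamini-Hochberg adjustment over all genes and a threshold of 0.05. The exact permutation test of a difference in means ran over all 92378 splits of the arrays and was two-sided. Percent of control comes from the log2 change. The fit was tested on simulated data. The alternatives changed limma's variance model, the test (the t-test and Wilcoxon test of the methods), the table used, the scaling between arrays (medians, quantiles), the treatment of dim genes and of genes with several probe sets, and the weights of arrays. They also added the replicate number as a block, assigned members by structure, and left out arrays. The labels give no batch.

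The members and gene lists were chosen with earlier results of these data known. The text names Mmut, each member that passed, the 3 largest rises and falls per subunit, members whose groups do not overlap, the mitochondrial ribosomal proteins with other symbols, and up to 4 genes that passed per other list. Other genes are named as whole lists or as chosen after their values were seen. Promoters came from RefSeq (GRCm38.p6), and all 76 members matched its gene table. Figures used Python 3.11.15 with matplotlib 3.10.9.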

Additional observations from a re-analysis of the deposited data

Results flagged for a closer look

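In 9 of 96 groups of values tested (48 named genes, both genotypes), 1 array lay far from the rest by Dixon's test at the 95% level, which chance alone gives in about 1 of 20 groups. Among the mutants, Mrpl15 was low in replicate 9 (9.06, the next at 9.65) and Mrps11 was low in replicate 4 (7.5, the next at 7.76). Mrpl58 was high in mutant replicate 10 (10.59, the next at 10.18) and Mrps34 was high in mutant replicate 7 (9.05, the next at 8.47). Among the controls, replicate 1 was low for Mrps15 (5.75, the next at 6.17) and for Mrps22 (6.87, the next at 7.71). Of the other named genes, Mpv17l2 was low in control replicate 5 (7.53), Cars2 was low in mutant replicate 4 (6.55) and Clec4g was high in mutant replicate 9 (12.4).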

How the results depend on the processing

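The medians kept their sign in every alternative, from -0.21 to -0.17 for the large and from -0.31 to -0.24 for the small subunit. The counts moved more. The methods' t-test and Wilcoxon test at an unadjusted p under 0.05 gave 36 and 35 members called (33 and 32 that fell), against 21 called and 19 that fell with limma. In the small subunit they gave 15 and 14 called (14 and 13 that fell), against 7 and 6. At that unadjusted threshold the t-test found 11.5% and the Wilcoxon test 11.1% of all genes lower. Of the large subunit, 2 genes rose in both unadjusted tests, against 1 with limma. After adjustment of both tests, with median centring, and without control replicate 1 and mutant replicate 6 together, 1 member rose in place of 2, and 0 in the large subunit. With a replicate block, 9 large subunit genes were called and 8 fell, against 14 and 13. The calls of Mrpl19, Mrpl33, Mrpl34, Mrpl37, Mrpl57 and Mrps11, and outside the family of Eral1, Tufm, Mrrf, Slirp, Cars2, Cs, Adgre1, Reln and Mki67, ended with it. The block drops mutant replicate 10. The labels do not say whether equal numbers pair animals. Same-numbered deviations correlated between -0.093 and 0.058, and 0 of 9 mutants correlated best with the control of their number. This gave no sign of pairing, but it cannot exclude a pairing that leaves no trace in expression.

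Leaving out 1 array at a time gave 14 to 22 members called, of which 12 to 21 fell and 1 to 2 rose. In the large subunit it gave 8 to 13 called, 8 to 13 that fell and 0 to 1 that rose, and in the small subunit 5 to 9 called, 4 to 8 that fell and 1 that rose. Median centring moved the median of all genes by -0.03 and quantile normalization by -0.01. The causes were not tested. For dim genes, signal near background limits the differences that can be seen.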
